A study of Mus musculus with 6 samples.

Results

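The AP-1 and EGR immediate early factors split in 4T-1 cells that carried hyperactive EZH2: *Fos*, *Jun*, *Junb*, *Egr1* and *Egr3* were lower, while *Fosl1* and *Atf3* were higher. In all, 10 transcription factor genes were followed, *Fos*, *Fosb*, *Fosl1*, *Fosl2*, *Jun*, *Junb*, *Jund*, *Atf3*, *Egr1* and *Egr3*, taken by gene name from the 40205 genes of the count table, and all 10 passed the filter on low counts. The data are RNA-seq read counts from 4T-1, a mouse mammary carcinoma line used as a model of triple-negative breast cancer. Y641-F cells carried a retroviral construct for EZH2-Y641-F, a hyperactive form of the enzyme that places trimethylation on lysine 27 of histone H3 (H3K27me3), and are labelled as Y641 mutated. Control cells received the MSCV retroviral vector alone and are labelled as wild type. There were 3 libraries in each group, described as different batches of stable cells, and the sources do not say whether each was transduced separately. The methods call the libraries biological replicates. The p-values set the difference between groups only against the spread between these batches, and that spread may be technical. The methods name hygromycin for selecting Y641-F cells and puromycin for Control cells in 1 place, and puromycin for both in another. If the drugs differed, drug and construct cannot be told apart here.

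AP-1 is a dimer of basic leucine zipper proteins. JUN proteins can pair with each other or with FOS proteins, and FOS proteins need a JUN partner to bind DNA. *Fos*, *Jun*, *Egr1* and their relatives are immediate early genes: growth factors, serum, wounding and stress switch them on within minutes through ERK, JNK and p38 kinases, without new protein synthesis, and most of the mRNAs are short-lived. FRA-1, the product of *Fosl1*, is made later and is well known in invasive, basal-like breast cancer cells, while EGR1 is a zinc finger factor that induces its own corepressor, NAB2.

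Libraries held 32509268 to 36429035 counts in Y641-F cells and 32955434 to 34881914 counts in Control cells. The epithelial markers *Epcam*, *Cdh1*, *Krt8* and *Krt18* were abundant in all libraries, with *Krt8* between 802 and 1037 CPM (a gene's share of its library's counts, with library sizes scaled by edgeR's TMM factors) in Y641-F cells and between 816 and 839 CPM in Control cells. Mouse *Ezh2* did not separate the groups, at 118.5, 102 and 122.6 CPM in Y641-F cells and 99.6, 121 and 110.3 CPM in Control cells, and the species of the construct is not given in the sources used here. The 8 haematopoietic markers summed to 14.4 to 17.7 CPM in Y641-F libraries and 18.1 to 32.4 CPM in Control libraries, with *Csf1r* the most abundant in every Y641-F library and *Cd68* in every Control library. The 7 tested endothelial and fibroblast markers summed to 27.7 to 42.3 CPM in Y641-F libraries and 40.5 to 53.4 CPM in Control libraries, mostly from *Pdgfra*. Of the 8 epithelial markers, *Krt14*, *Cldn7* and *Cldn3* rose (log2 fold changes of 1.59, 1.14 and 0.60, Y641-F over Control, edgeR adjusted p at most 9.93e-04) and the other 5 missed the threshold. Among the markers of other cells, *Cd68* (-0.95) and *Col1a1* (-2.08) fell, with edgeR adjusted p of at most 0.00116. The part of other cells in the results below was not tested.

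Of the 10 genes, 5 were lower and 2 were higher in Y641-F cells at an adjusted p under 0.05 from edgeR's quasi-likelihood test (Benjamini-Hochberg adjustment over all 21043 genes tested), and 3 did not pass. Over all genes tested, 16.0% were lower and 15.6% were higher. All 3 Y641-F libraries lay below all 3 Control libraries for 6 of the 10 genes and above them for 2, against 23.3% and 21.2% of all genes tested. The median log2 fold change was -0.48 over the 10 genes and -0.01 over all genes. In bulk RNA, fewer cells that transcribe a gene and less RNA per cell cannot be told apart.

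**Figure D1:**
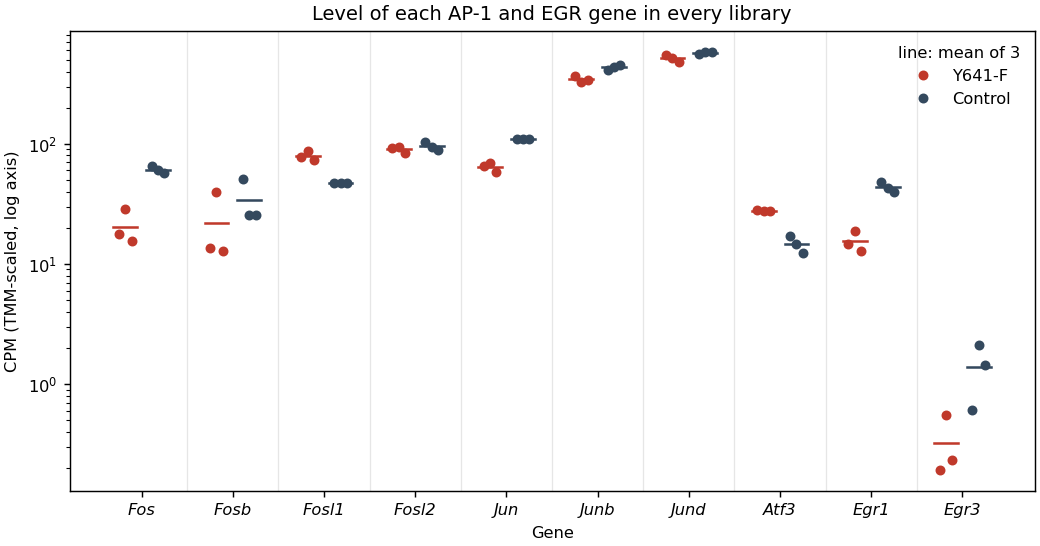
Level of each gene in CPM (log axis), with 1 point per library (Y641-F red, left; Control dark, right) and a line at the mean of 3 libraries. *Fos*, *Jun*, *Egr1* and *Egr3* lie lower and *Fosl1* and *Atf3* higher in all Y641-F libraries, and *Fosb* is spread widely in both groups.

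The promoters of *Fos* and *Jun*, which fell, and of *Atf3*, which rose, are shown because these 3 genes changed strongly and the windows carry the elements through which AP-1 and CREB/ATF proteins are known to act on them. The sequences are the RefSeq windows from 250 bases before to 50 bases after the annotated start, on the gene's strand, in build GRCm38.p6, while the counts were made on GRCm39. Capitals mark the matches to the 6 motifs searched on both strands, which were TGACGT (the core of the cyclic AMP response element), TGACATCA (the AP-1 element of *Jun*), TGANTCA (the usual AP-1 site), TATAAA, GCGNGGGCG (the EGR site) and the CArG box bound by SRF.
Fos, chr12:85473640-85473939, plus strand: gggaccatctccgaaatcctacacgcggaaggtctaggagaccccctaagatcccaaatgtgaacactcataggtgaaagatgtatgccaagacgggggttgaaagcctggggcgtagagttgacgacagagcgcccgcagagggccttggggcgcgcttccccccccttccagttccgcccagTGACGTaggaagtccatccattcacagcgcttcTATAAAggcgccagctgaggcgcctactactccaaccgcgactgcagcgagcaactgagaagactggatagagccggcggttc
Jun, chr4:95052173-95052472, minus strand: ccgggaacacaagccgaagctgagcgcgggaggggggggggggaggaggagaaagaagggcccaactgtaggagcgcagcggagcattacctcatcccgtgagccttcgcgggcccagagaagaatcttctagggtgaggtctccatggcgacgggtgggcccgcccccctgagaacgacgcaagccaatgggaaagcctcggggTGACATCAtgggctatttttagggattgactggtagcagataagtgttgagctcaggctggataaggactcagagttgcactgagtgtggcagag
Atf3, chr1:191183284-191183583, minus strand: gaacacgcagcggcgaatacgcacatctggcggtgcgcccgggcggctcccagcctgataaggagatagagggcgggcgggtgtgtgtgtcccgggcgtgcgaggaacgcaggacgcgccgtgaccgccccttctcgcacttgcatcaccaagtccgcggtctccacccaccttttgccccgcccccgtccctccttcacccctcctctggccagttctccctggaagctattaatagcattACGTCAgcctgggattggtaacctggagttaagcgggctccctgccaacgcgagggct

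In these windows TGACGT was found in *Fos*, with its first base 66 bases before the start, and on the other strand in *Atf3*, 8 bases before the start. That motif was in 7.51% of the 32851 promoter windows of the table. TGACATCA was found in *Jun*, 45 bases before the start, and in 3.62% of all windows. TATAAA was found in *Fos*, 33 bases before the start, and in *Junb*, where it begins at the annotated start itself, against 13.6% of all windows. Of the 7 genes with a window, *Fosb* and *Fosl2* held the EGR site, which 5.55% of all windows held. TGANTCA and the CArG box, in 7.81% and 1.63% of all windows, were not among the letters of these 7 windows. The windows reach only 250 bases before the start, so sites farther upstream were not searched. *Fosl1*, *Egr1* and *Egr3* had no window and are named only. A match is a description of the sequence and not a test of binding, and the fallen *Fos* and the risen *Atf3* both held TGACGT.

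*Fos*, which encodes c-FOS, had 17.6, 28.5 and 15.4 CPM in Y641-F cells, against 64.9, 60.1 and 57.1 CPM in Control cells. The Y641-F libraries were all far below the Control libraries, and Y641-F replicate 2 was the highest of its group. The level was 2.96-fold lower in Y641-F cells, with a log2 fold change of -1.57 (SE 0.181, 95% interval -1.96 to -1.17, edgeR adjusted p = 5.52e-05). Its raw counts of 547, 932 and 527 in Y641-F libraries and 2330, 2165 and 1886 in Control libraries are deep enough that counting error is small beside this difference. *Fos* lies on chromosome 12 of GRCm39 (85520658 to 85524047, plus strand), and no exon of another gene overlaps its exons in GENCODE vM39.

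*Fosl1*, which encodes FRA-1, moved the other way. Its level was 77.3, 86.7 and 73.9 CPM in Y641-F cells and 47.1, 47.3 and 47.1 CPM in Control cells. Every Y641-F library was above every Control library, and the Control libraries were nearly identical. The rise was 1.68-fold, with a log2 fold change of 0.75 (SE 0.0871, 95% interval 0.56 to 0.94, edgeR adjusted p = 5.75e-05). Of the 2033 bases of *Fosl1* exons on chromosome 19 (5497575 to 5505974, plus strand), 1404 are overlapped by exons of *Ccdc85b* and *Gm59617* on the other strand. Since the strand setting of the counting is not given in the sources used here, reads of these genes may not be fully separated. *Ccdc85b* also rose, by less, with 108, 106 and 101 CPM in Y641-F cells and 86.5, 88.4 and 91.8 CPM in Control cells (log2 fold change 0.24, SE 0.0807, edgeR adjusted p = 0.0401), and this call was lost without Y641-F replicate 1 or any 1 Control library (edgeR adjusted p of 0.0695 to 0.154). Its part in the rise of *Fosl1* was not tested.

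*Fosb* and *Fosl2* did not pass the test. *Fosb*, which encodes FOSB and the truncated ΔFOSB, had 13.5, 40.0 and 12.8 CPM in Y641-F cells, against 51.3, 25.8 and 25.4 CPM in Control cells. Y641-F replicate 2 reached into the Control range, and Control replicate 1 stood above the other Control libraries. The log2 fold change of *Fosb* was -0.63 (95% interval -1.47 to 0.22, edgeR adjusted p = 0.255). Without Y641-F replicate 2 it was -1.37 and passed the test (edgeR adjusted p = 9.63e-04). Without Control replicate 1 it was only -0.21 (edgeR adjusted p = 0.749), so both the call and the size of the change hung on single libraries of either group. *Fosl2*, which encodes FRA-2, had 91.6, 94.1 and 84.3 CPM in Y641-F cells and 104, 94.0 and 88.8 CPM in Control cells, and the groups overlapped. Its 95% interval of the fold, 0.822 to 1.08, does not reach the fold of *Fos* (0.337) or of *Fosl1* (1.68).

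The FOS family differed between the groups in its makeup. Levels of different genes were compared as CPM per kilobase of exon, with the exons of all transcripts joined. Exons on the other strand overlap 1404 of the 2033 exon bases of *Fosl1*, and the strand setting of the counting is not given. The part of this overlap in the shares was not tested. The 4 FOS genes summed to 56.5, 70.2 and 53.0 CPM per kb in Y641-F cells and 68.9, 61.9 and 60.0 CPM per kb in Control cells, with overlap between the groups. *Fosl1* made up 65.5 ± 4.19% of this sum in Y641-F cells and 36.6 ± 2.64% in Control cells (SD, n = 3). *Fos* made up 14.2 ± 2.60% in Y641-F cells and 40.5 ± 0.591% in Control cells (SD, n = 3). The shares of both genes did not overlap between the groups (exact permutation test, two-sided, p = 0.1, the smallest that 3 against 3 libraries allow, and 0.18 adjusted over the 9 shares computed). *Fosl2* held 14.6% in Y641-F cells and 14.4% in Control cells, and *Fosb* held 5.62% in Y641-F cells and 8.46% in Control cells. Within each library the ratio of *Fosl1* to *Fos* CPM had a geometric mean of 4.01 in Y641-F cells and 0.778 in Control cells. Without length scaling the same shift was smaller, at 17.7 rather than 28.9 percentage points for *Fosl1* and -16.2 rather than -26.3 for *Fos*.

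**Figure D2:**
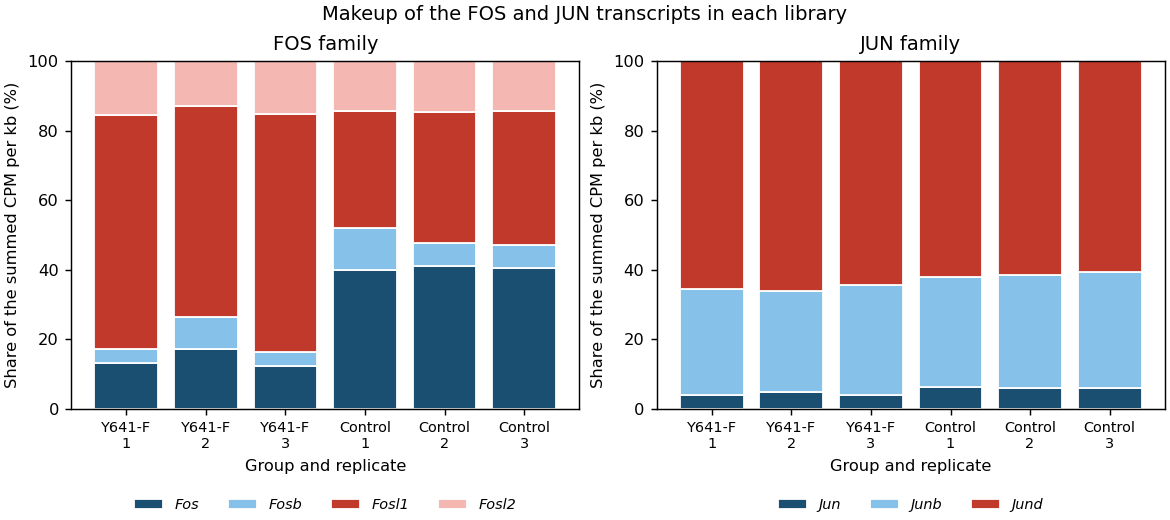
Share of each gene in the summed CPM per kb (%) of the FOS family (left) and the JUN family (right), 1 stacked bar per library, Y641-F libraries first. *Fosl1* takes 60.8% to 68.5% of the FOS sum in Y641-F libraries and 33.6% to 38.6% in Control libraries, while *Jund* is the largest JUN share in every library.

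Among the JUN genes, *Jun* and *Junb* fell and *Jund* did not pass the test. *Jun*, which encodes c-JUN and is the member most closely tied to JNK signalling, had 65.5, 69.7 and 58.1 CPM in Y641-F cells and 111, 109 and 111 CPM in Control cells. The groups were far apart, with a level 1.71-fold lower in Y641-F cells (log2 fold change -0.77, SE 0.0894, edgeR adjusted p = 5.52e-05). *Jun* lies on chromosome 4 (94937271 to 94940459, minus strand), and 528 bases of its 3189 exon bases are overlapped by the antisense gene *Junos*. *Junos* was low and also fell, with 1.77, 3.82 and 2.34 CPM in Y641-F cells and 6.77, 4.75 and 5.54 CPM in Control cells (log2 fold change -1.10, edgeR adjusted p = 0.00648), and its reads may in part be reads of *Jun*.

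*Junb*, often growth-restraining where *Jun* promotes growth, had 367, 325 and 339 CPM in Y641-F cells and 412, 439 and 453 CPM in Control cells. The groups did not overlap, but the difference was small (log2 fold change -0.34, SE 0.0938, edgeR adjusted p = 0.0159), and the call was lost without Control replicate 2 (edgeR adjusted p = 0.0805). *Jund*, the least inducible JUN gene, had 553, 516 and 483 CPM in Y641-F cells and 564, 580 and 577 CPM in Control cells. Its Y641-F libraries were also all lower, but it did not pass the test (log2 fold change -0.15, 95% interval -0.36 to 0.06, edgeR adjusted p = 0.262). Exons on the other strand overlap 877 of the 1667 exon bases of *Jund* and 318 of the 2381 of *Junb*.

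*Jund* and *Junb* were the most abundant of the 10 genes in both groups. *Jund* was at 310 ± 20.8 CPM per kb in Y641-F cells and 344 ± 5.15 in Control cells, and *Junb* at 144 ± 9.16 in Y641-F cells and 183 ± 8.82 in Control cells (SD, n = 3). *Jun* made up only 4.26 ± 0.358% of the JUN sum in Y641-F cells and 6.15 ± 0.175% in Control cells (SD, n = 3). The JUN sum was 506, 468 and 450 CPM per kb in Y641-F cells and 546, 567 and 571 in Control cells, so every Y641-F library was below every Control library. In both groups the JUN sum was several times the FOS sum on this scale. The part of the opposite-strand exons, which overlap 877 of the 1667 exon bases of *Jund*, in these levels was not tested.

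Below *Jund* and *Junb*, the order of the levels per kb differed between the groups. In Y641-F cells it ran *Fosl1* (39.0), *Jun* (20.2), *Atf3* (11.3), *Fos* (8.69), *Fosl2* (8.66), *Fosb* (3.55), *Egr1* (3.42) and *Egr3* (0.0691 CPM per kb). In Control cells it ran *Jun* (34.5), *Fos* (25.7), *Fosl1* (23.2), *Egr1* (9.74), *Fosl2* (9.19), *Atf3* (6.002), *Fosb* (5.47) and *Egr3* (0.296 CPM per kb). The neighbours *Atf3* and *Fos*, *Fos* and *Fosl2*, and *Fosb* and *Egr1* overlapped across the Y641-F libraries, as did *Egr1* and *Fosl2*, and *Atf3* and *Fosb*, across the Control libraries. The part of the opposite-strand exon overlap in the place of *Fosl1* in this order was not tested. The order also depends on the length used. Joined exons of *Fosl2* and *Fosb* span 10397 and 6243 bases, against 6975 and 3782 bases in their longest transcripts. The order by longest transcript was not computed.

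*Atf3*, a stress-induced bZIP factor that often represses its targets and can pair with JUN proteins, showed the largest rise of the 10 genes. It had 28.1, 27.4 and 27.5 CPM in Y641-F cells, against 17.0, 14.6 and 12.4 CPM in Control cells. The Y641-F libraries were nearly the same, and all lay well above the Control libraries. The rise was 1.89-fold (log2 fold change 0.92, SE 0.118, 95% interval 0.66 to 1.17, edgeR adjusted p = 1.17e-04). *Atf3* lies on chromosome 1 (190902493 to 190950241, minus strand), with no overlapping exon of another gene.

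*Egr1* was 2.85-fold lower in Y641-F cells, a change close in size to that of *Fos*. Its level was 14.8, 18.7 and 12.7 CPM in Y641-F cells and 48.4, 43.0 and 40.0 CPM in Control cells. The groups were far apart (log2 fold change -1.51, SE 0.135, 95% interval -1.80 to -1.21, edgeR adjusted p = 8.95e-06), which was the smallest adjusted p of the 10 genes. The ratio of *Egr1* to *Fos* CPM within a library had a geometric mean of 0.770 in Y641-F cells and 0.720 in Control cells. *Egr1* lies on chromosome 18 (34992876 to 34998049, plus strand).

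*Egr3*, which EGR1 can induce in other cells, had the largest fold change and the fewest reads. It had 6, 18 and 8 counts in Y641-F libraries and 22, 76 and 48 counts in Control libraries, which is 0.193, 0.550 and 0.234 CPM against 0.613, 2.11 and 1.45 CPM. The groups did not overlap, but Y641-F replicate 2 came close to Control replicate 1. The level was 4.23-fold lower in Y641-F cells (log2 fold change -2.08, SE 0.534, 95% interval -3.25 to -0.92, edgeR adjusted p = 0.0106). The call was lost without Control replicate 2 (log2 fold change -1.65, edgeR adjusted p = 0.0608) and without Y641-F replicate 1 (-1.83, edgeR adjusted p = 0.0512). Control replicate 2 was also the library with the highest sum of haematopoietic markers, at 32.4 CPM, and the part of this in its *Egr3* level was not tested. With replicate 2 left out of both groups, an alternative chosen after seeing the data, *Egr3* was still called (-2.25, edgeR adjusted p = 0.0149).

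**Figure D3:**
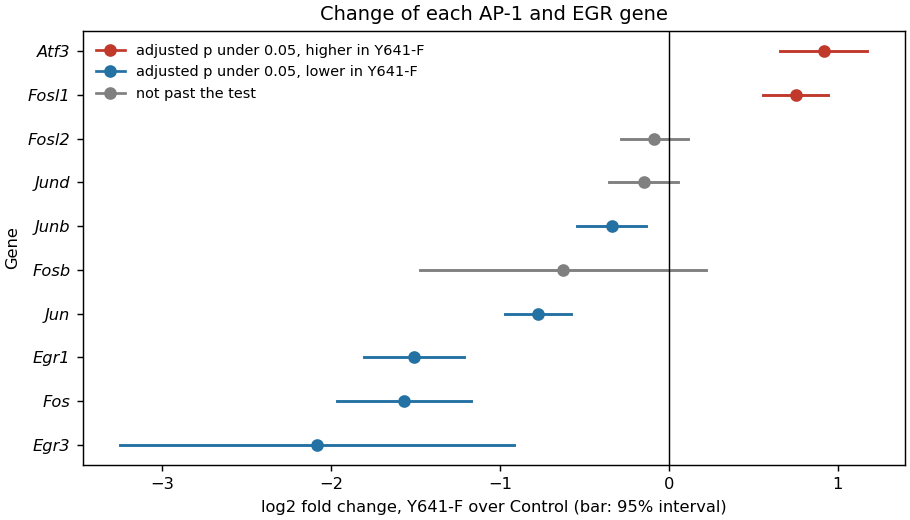
Log2 fold change of each gene, Y641-F over Control, with its 95% interval as a bar and the result of the edgeR test as colour. *Atf3* and *Fosl1* lie right of 0, at 0.92 and 0.75, and *Egr3*, *Fos* and *Egr1* lie farthest to the left, at -2.08, -1.57 and -1.51.

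Within the Y641-F group, *Fosb*, *Egr3*, *Fos* and *Egr1* varied most. Y641-F replicate 2 had 1.73 times the mean of the other 2 Y641-F libraries for *Fos*, 3.04 times for *Fosb*, 1.36 times for *Egr1* and 2.58 times for *Egr3*. For the other 6 genes that ratio lay between 0.919 and 1.15. Without that library *Fos* had a log2 fold change of -1.88 and *Egr1* of -1.67.

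Of the other EGR genes only *Egr2* could be tested, and it did not pass. *Egr2*, which is close to both in its zinc fingers, had 18.8, 19.4 and 18.7 CPM in Y641-F cells and 22.3, 19.8 and 18.3 CPM in Control cells, with overlapping groups (log2 fold change -0.09, edgeR adjusted p = 0.567). *Egr4* was not tested, since no library held more than 2 counts for it. The EGR corepressor gene *Nab2* fell (log2 fold change -0.61, edgeR adjusted p = 0.00374), with 11.1, 8.73 and 8.59 CPM in Y641-F cells and 14.99, 13.6 and 14.8 CPM in Control cells. Its relative *Nab1* rose (0.39, edgeR adjusted p = 0.018), a call lost without Y641-F replicate 1 or 3 or Control replicate 1 or 2 (edgeR adjusted p of 0.0583 to 0.0774).

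Of 16 other bZIP genes tested that can join or rival AP-1 dimers, 3 fell, 4 rose and 9 missed the threshold. Their median log2 fold change was -0.09, and over all genes tested 16.0% were lower and 15.6% were higher. *Jdp2*, whose product represses AP-1 sites, fell to 13.6 ± 1.51 CPM in Y641-F cells, against 22.6 ± 1.01 CPM in Control cells (SD, n = 3, log2 fold change -0.73, edgeR adjusted p = 3.66e-04). *Mafa* and *Maf*, both at low levels, had log2 fold changes of -1.68 and -2.10 (edgeR adjusted p = 1.56e-04 and 0.0335). *Maf* had 0.0643, 0.122 and 0.0584 CPM in Y641-F cells, below the 0.1 CPM minimum in replicates 1 and 3. It passed the filter on low counts through the Control libraries, which favours a fall. The call of *Maf*, which rests on 2 to 18 counts per library, was lost without Y641-F replicate 1 or 3 or Control replicate 2 or 3 (edgeR adjusted p of 0.0715 to 0.143) and with the replicate block (0.0569), which leaves 2 falls in the list. The largest rises were those of *Batf3* (0.67), *Mafk* (0.47) and *Maff* (0.44, edgeR adjusted p at most 0.023), of which *Mafk* and *Maff* encode small MAF proteins that lack an activation domain. The call of *Batf3* was lost without Y641-F replicate 2 or any 1 Control library (edgeR adjusted p of 0.062 to 0.0757).

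Other immediate early genes moved in both directions, like the 10 genes. Of 37 tested, 9 fell, 13 rose and 15 missed the threshold, and the median log2 fold change was 0.05. The shares over all genes tested were 16.0% lower and 15.6% higher. *Klf2*, a flow- and serum-responsive Krüppel-like factor, had 1.48, 3.94 and 2.10 CPM in Y641-F cells and 10.1, 10.6 and 10.7 CPM in Control cells (log2 fold change -2.06, edgeR adjusted p = 1.25e-04). The kinase gene *Pim1* (-0.84) and the clock gene *Per1* (-0.78) also fell, with edgeR adjusted p of at most 4.02e-04. The largest rises were those of *Ccn2* (1.91), which encodes the matricellular protein CTGF, and of the polo-like kinase genes *Plk2* (1.09) and *Plk3* (0.87), with edgeR adjusted p of at most 0.00148. *Ccn2* was among the genes the study picked from these libraries. *Ier2* (-0.53) and *Zfp36* (-0.72) fell, whereas *Myc* (0.78) rose, with edgeR adjusted p of at most 3.74e-04. The other IER genes of the list did not fall. *Ier3* (0.58) and *Ier5* (0.39) rose, with edgeR adjusted p of at most 0.00306, and *Ier5l* did not pass (0.07, edgeR adjusted p = 0.651). *Dusp1* (-0.19, edgeR adjusted p = 0.197) and *Nr4a1* (-0.19, edgeR adjusted p = 0.308) did not pass the test, but without Y641-F replicate 2 *Dusp1* did (-0.30, edgeR adjusted p = 0.0219).

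**Figure D4:**
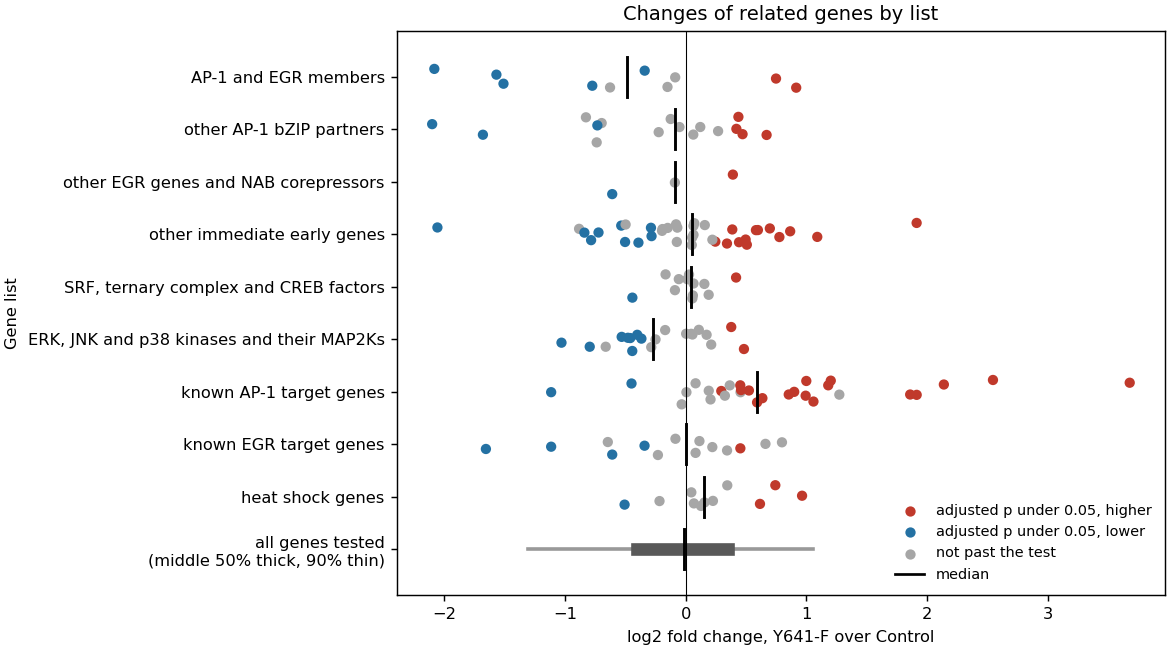
Log2 fold change, Y641-F over Control, of the genes tested in each list (1 point per gene, coloured by the edgeR test, black tick at the median) and of all genes tested at the bottom, as bars for the middle of their range. The known AP-1 targets have a median of 0.59, and the other immediate early genes spread to both sides of 0.05.

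The kinases that switch these genes on and the factors at their promoters were read from 2 further lists. Beside the counts of both lists stand the shares over all genes tested, 16.0% lower and 15.6% higher. Of 20 genes for ERK, JNK and p38 kinases, their activating kinases and RSK kinases, 8 fell, 2 rose and 10 missed the threshold, with a median log2 fold change of -0.27. *Mapk3*, which encodes ERK1, had 50.8, 49.2 and 51.4 CPM in Y641-F cells and 97.9, 109 and 103 CPM in Control cells (log2 fold change -1.03, SE 0.0823, edgeR adjusted p = 3.86e-06). *Map2k1* (MEK1, -0.79) and *Mapk7* (ERK5, -0.53) also fell, and *Map2k3* (0.48) and *Map2k7* (0.38), which act on p38 and JNK, rose, with edgeR adjusted p of at most 0.00617. RNA levels do not show kinase activity, which was not measured here. Of 12 SRF, ternary complex and CREB factors, 1 fell, 1 rose and 10 missed the threshold. These were *Mrtfb*, a coactivator of SRF (-0.44, edgeR adjusted p = 0.0301), and *Atf1*, a CREB relative (0.42, edgeR adjusted p = 0.00442). The call of *Mrtfb* was lost without Control replicate 1 (edgeR adjusted p = 0.0896) or Control replicate 2 (0.0766), which leaves no fall in the list. *Srf* had 99.0, 84.4 and 81.6 CPM in Y641-F cells and 77.0, 78.0 and 77.1 CPM in Control cells (0.19, edgeR adjusted p = 0.141).

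Of 29 known AP-1 target genes tested, 18 rose, 2 fell and 9 missed the threshold, with a median log2 fold change of 0.59. Among all genes tested, 15.6% were higher and 16.0% were lower. The largest rises were those of *Serpinb2* (3.68), *Ptgs2* (2.55) and *Csf2* (2.14), which encode plasminogen activator inhibitor 2, cyclooxygenase 2 and GM-CSF, with edgeR adjusted p of at most 1.90e-04. The urokinase receptor gene *Plaur* had 125, 140 and 117 CPM in Y641-F cells and 58.9, 54.1 and 55.7 CPM in Control cells (log2 fold change 1.18, edgeR adjusted p = 3.39e-06). The EGF family ligand genes *Areg* (0.90) and *Hbegf* (0.85) and the cytokine gene *Lif* (1.0001) rose as well, with edgeR adjusted p of at most 2.37e-04. The genes that fell were *Vegfa* (-1.11), which is also induced by low oxygen, and *Spp1* (osteopontin, -0.45), with edgeR adjusted p of at most 0.00245. These genes have many other inputs, and the list was chosen with earlier results of these libraries known.

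Known EGR targets were fewer and mixed. Of 14 tested, 4 fell, 1 rose and 9 missed the threshold, against 16.0% lower and 15.6% higher over all genes tested. The median log2 fold change of the 14 genes was close to 0. Those that fell most were the heparanase gene *Hpse* (-1.65), *Vegfa* and *Nab2*, followed by *Pdgfa* (-0.34, edgeR adjusted p = 0.0216), whose call was lost without Y641-F replicate 3 or any 1 Control library (edgeR adjusted p of 0.0518 to 0.074). *F3*, which encodes tissue factor, rose (0.45, edgeR adjusted p = 0.00364). *Vegfa* and *Tgfb1* stand in both target lists.

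Heat shock genes, which handling of cells can induce along with immediate early genes, were given for comparison. Of 11 tested, 3 rose, 1 fell and 7 missed the threshold, against 15.6% higher and 16.0% lower over all genes tested. The inducible *Hspa1a* had 29.1, 26.1 and 26.9 CPM in Y641-F cells and 27.3, 26.9 and 24.0 CPM in Control cells (log2 fold change 0.07, edgeR adjusted p = 0.636), so it did not separate the groups. *Hspa1b* (0.13) and *Dnajb1* (-0.22) did not pass the test either. *Hsp90aa1* just missed the threshold (0.35, edgeR adjusted p = 0.0504), though every Y641-F library lay above every Control library. The genes that rose were *Hspe1* (0.97), *Hsph1* (0.74) and *Hspd1* (0.62), of which *Hspe1* and *Hspd1* encode mitochondrial chaperones, and *Dnajb4* fell (-0.51), with edgeR adjusted p of at most 0.00156.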

How the data were processed

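Per the submitters' processing notes and methods, reads from an Illumina NovaSeq were trimmed with fastp 0.20.1, aligned with STAR version 2 to GRCm39 and counted with featureCounts 2.0.1. The deposited values are raw read counts per gene, neither normalized nor filtered. The sources used here give neither the gene annotation nor the strand setting.

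The 10 genes and all gene lists were chosen with earlier results of these data known. Samples were grouped by title. Genes reaching 0.1 CPM in 3 or more libraries were retained (21043 of 40205), scaled by TMM and compared with the quasi-likelihood test of edgeR 4.0.16 (limma 3.58.1, R 4.3.3), with Benjamini-Hochberg adjustment over all retained genes and an adjusted p threshold of 0.05. Each standard error (SE) was derived from the test, as the absolute log2 fold change over the square root of its F statistic. The 95% intervals are the log2 fold change plus and minus this standard error times the t quantile of the fit. DESeq2 1.42.0 served for alternatives. Exon lengths and positions are from GENCODE vM39. Family shares were computed with Python 3.11.15 and scipy 1.17.1.

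From each list, the 3 largest rises and falls among called genes, all EGR and NAB genes and the most abundant marker of each other cell type were named. *Plaur*, *Areg*, *Hbegf*, *Lif*, *Ier2*, *Zfp36*, *Myc*, *Dusp1*, *Nr4a1*, *Srf*, *Pdgfa*, *Hspa1a*, *Hspa1b*, *Dnajb1*, *Tgfb1* and the epithelial markers were named after their values were seen, as were the antisense and overlapping genes. *Ier3*, *Ier5*, *Ier5l* and *Hsp90aa1* were also named after their values were seen, and were not followed singly under the alternatives. The alternatives were each library left out in turn, a block for replicate number, and other scalings, filters and tests, and leaving out replicate 2 of both groups was added after seeing the data. Libraries of 1 group differed by more than sampling noise (chi-square per degree of freedom 11 to 29.9).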

Additional observations from a re-analysis of the deposited data

How the results depend on the processing

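No fold change of the 10 genes turned direction under any of 17 alternatives. *Fos*, *Fosl1*, *Jun*, *Atf3* and *Egr1* passed the edgeR, DESeq2 or limma test under all of them. The number of genes lower in Y641-F cells was 3 to 6 with 1 library left out, lowest without Control replicate 2, where *Junb* and *Egr3* were lost, and highest without Y641-F replicate 2, where *Fosb* was gained. The number higher was 2 throughout. With replicate 2 left out of both groups, *Junb* was lost (edgeR adjusted p = 0.0754) and *Fosb* gained (7.29e-04). With no filter on low counts *Fosb* was also called (edgeR adjusted p = 2.74e-07), in a fit that gave every gene the spread of the trend and none of its own. *Egr3*, at few counts, was not tested at a minimum of 1 CPM.

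With the replicate number as a block, the same 5 and 2 genes were called, and *Fos* had a log2 fold change of -1.61. Deviations of same-numbered libraries from their group means correlated at -0.0705, -0.00402 and 0.102. With 3 libraries in each group, these values cannot decide whether same-numbered libraries were paired. No scaling moved the median of all genes by over 0.1, and it lay between -0.0508 and 0.00358 over the settings with all 6 libraries.

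Without length scaling, the shares in the FOS sum differed by -16.2 percentage points for *Fos*, 17.7 for *Fosl1* and 2.62 for *Fosl2*, and that of *Jun* in the JUN sum by -2.88. With the longest transcript, the share of *Fos* differed by -24.1. *Maf* also missed the threshold with DESeq2 (0.0518) and limma-voom (0.0531). With the block, *Maf* and *Ccdc85b* (0.0668) were lost among the named genes that were followed. The SRF, ternary complex and CREB factors that fell were 0 to 1 with 1 library left out, 0 without Control replicate 1 or Control replicate 2, and 0 with replicate 2 left out of both groups. The known EGR targets that rose were 2 with DESeq2 size factors, with the DESeq2 Wald test and at a minimum of 1 CPM. Heat shock genes that rose numbered 3 to 4 over the alternatives, and 4 with the edgeR exact test, the DESeq2 Wald test or limma-voom.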
